A study of Drosophila melanogaster with 20 samples.

Results

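The genes described here are 10 regulators of programmed cell death in Drosophila melanogaster. They are the death activators rpr, hid, grim and skl, the apoptosome scaffold gene Dark, the caspase genes Dronc and Drice, the caspase inhibitor gene Diap1, and the Bcl-2 family genes Buffy and Debcl. They were chosen by name, with no cut on their values but with earlier results of these data known. All 10 had a row among the 17606 genes of the deposited matrix. RNA was sequenced from wings and salivary glands in 20 libraries, 2 for each of 10 groups, at -30, -6 and +6 hours relative to puparium formation. The 3 times are timed larvae, wandering larvae and staged prepupae, all labelled female, and each library pooled at least 60 dissected wings or glands. Wild-type tissue (WT, +/+ on every chromosome) covered all 3 times in both tissues. Tissue called EcRi below covered -30 h and -6 h and came from yw/yw animals with the Vg-GAL4 and UAS-Flp transgenes, the cassette Tub>>CD2>>GAL4, a UAS-GFP reporter and the hairpin UAS-EcR-RNAi[104] against the ecdysone receptor gene EcR. In these animals vestigial-driven GAL4 turns on the recombinase, which removes the CD2 stop cassette and leaves GAL4 under the tubulin promoter. Which cells had lost the cassette is not given in the sources used here. WT animals carried none of these transgenes, so a difference between EcRi and WT includes the difference between the lines. The study addressed how ecdysone, acting through EcR, gives different responses in different tissues.

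In flies, Rpr, Hid, Grim and Skl bind Diap1 and free caspases from its inhibition. Dronc, the initiator caspase, is activated on the scaffold protein Dark and then cleaves effector caspases such as Drice. Larval salivary glands are a known target of this machinery, since ecdysone pulses after puparium formation bring on death activators and the gland is destroyed, whereas the wing epithelium survives to form the adult wing.

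Levels below are scaled RPM, that is RPM (reads relative to the depth of the library) after TMM scaling, which sets a factor per library so that most genes keep their level, and both libraries of a group are given in the order replicate 1, replicate 2. Changes are differences in log2(scaled RPM + 1) ± standard error from limma, which pools the spread of each gene over all 10 groups. A gene is said to have risen, fallen or changed, or to be higher or lower by the test, where its Benjamini-Hochberg adjusted p over 10194 tested genes was under 0.05 and the change at least 1 in size, which is 2-fold. The labels do not say whether replicates came from separate animals, so p-values measure only the spread between libraries. In whole tissue, fewer cells of a type and less RNA per cell cannot be told apart.

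Libraries held 14949900 to 22626725 reads. Replicate 2 of the WT gland at -30 h stood apart, with 6347 genes detected against 9405 to 11468 in the other 19 libraries, and 179 genes at 0 there had at least 10 scaled RPM in replicate 1. Results that use it are given with and without it. In the WT gland at -6 h the glue genes alone made up 64.98% and 72.53% of all reads, and the TMM factors there were 0.196 to 0.242. For the genes described here, results at that time are therefore also given without scaling where this ends or turns a call. EcR itself stood at 268 and 273 in the WT gland at -30 h, 1373 and 1275 at -6 h, and 208 and 223 at +6 h. EcRi glands held 279 and 261 at -30 h, which did not differ from WT (-0.00 ± 0.14, adjusted p = 1.00), and 233 and 189 at -6 h, lower than WT by -2.65 ± 0.14 (adjusted p = 6.45e-09). The call at -6 h rests on the scaling: the deposited EcR RPKM was 4.09 and 3.08 in WT and 2.76 and 2.61 in EcRi, and without scaling the difference was -0.39 ± 0.23 (adjusted p = 0.146), where the median of all genes was 1.94. At -30 h it was -0.70 ± 0.23 without scaling (adjusted p = 0.0318), under 2-fold. A fall of EcR in the libraries labelled EcRi is thus not shown in the gland at -30 h, and at -6 h is shown relative to other genes and not in the share of reads. In the wing EcRi was lower by -0.68 ± 0.14 at -30 h (adjusted p = 0.0144) and by -0.50 ± 0.14 at -6 h (adjusted p = 0.1), neither reaching 2-fold. Whether reads of the hairpin itself count toward EcR was not tested.

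Markers of the labelled tissues were present. The 6 wing disc markers summed to 962 to 1340 scaled RPM in wings and 119 to 227 in glands, with none of the 6 at 0. The 8 gland markers summed to 1698 to 3181000 in glands and 59.6 to 713 in wings, except 10910 and 7460 in the WT wing at -6 h. The 6 fat body markers reached 2660 to 21030 in glands, highest in EcRi glands at -30 h (14380 and 21030, against 7275 and 3607 in WT). In wings they reached 21.7 to 196, except 2602 in replicate 2 of the WT wing at -30 h. The 6 blood cell markers summed to at most 15.9 in any library, with eater at 0 in both libraries of all 3 WT gland groups. The 5 tracheal markers summed to 120 and 144 in the WT gland at -6 h and to 426 and 320 at +6 h. The part of these tissues in the results below was not tested.

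In dm6 coordinates the 4 death activators lie on chromosome 3L, all on the minus strand. The span of hid is 3L:18167745-18185641, that of grim 3L:18302719-18304417, that of rpr 3L:18397535-18398435 and that of skl 3L:18438561-18439942. Dronc (3L:9968479-9971002) and Diap1 (3L:16038410-16051034) lie on the same arm, Drice on 3R (29799658-29801584), and Dark (17020027-17026703), Buffy (11679492-11688557) and Debcl (6648654-6652842) on 2R. Deposited values count reads over the whole gene span relative to its length, introns included. That length is 17897 bases for hid and 901 for rpr, of which 4018 and 901 are exonic, so per-length levels of hid, Diap1 and Buffy are diluted by intron sequence. On this per-length scale (RPKM, deposited values) rpr had a median of 16.3 over the 20 libraries, Diap1 15.8, Drice 14.5, Debcl 9.62, Dronc 7.88, hid 4.88, Dark 4.63 and Buffy 0.0985.

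The death activators grim and skl were almost undetected. grim had 5 reads in all, 3 and 1 in the WT wing at +6 h and 1 in replicate 2 of the WT gland at +6 h, and was at 0 in the other 17 libraries. skl had 9 reads in all, at most 2 in a library, and was at 0 in 13. A count of 0 allows up to 3 reads, which is 0.0828 to 0.694 scaled RPM depending on the library and covers counting error only. Neither gene passed the filter on low values, so 8 of the 10 were tested, and no comparison of grim or skl is given. The row of grim also overlaps the non-coding genes asRNA:CR45974 and lncRNA:CR45975.

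**Figure D1:**
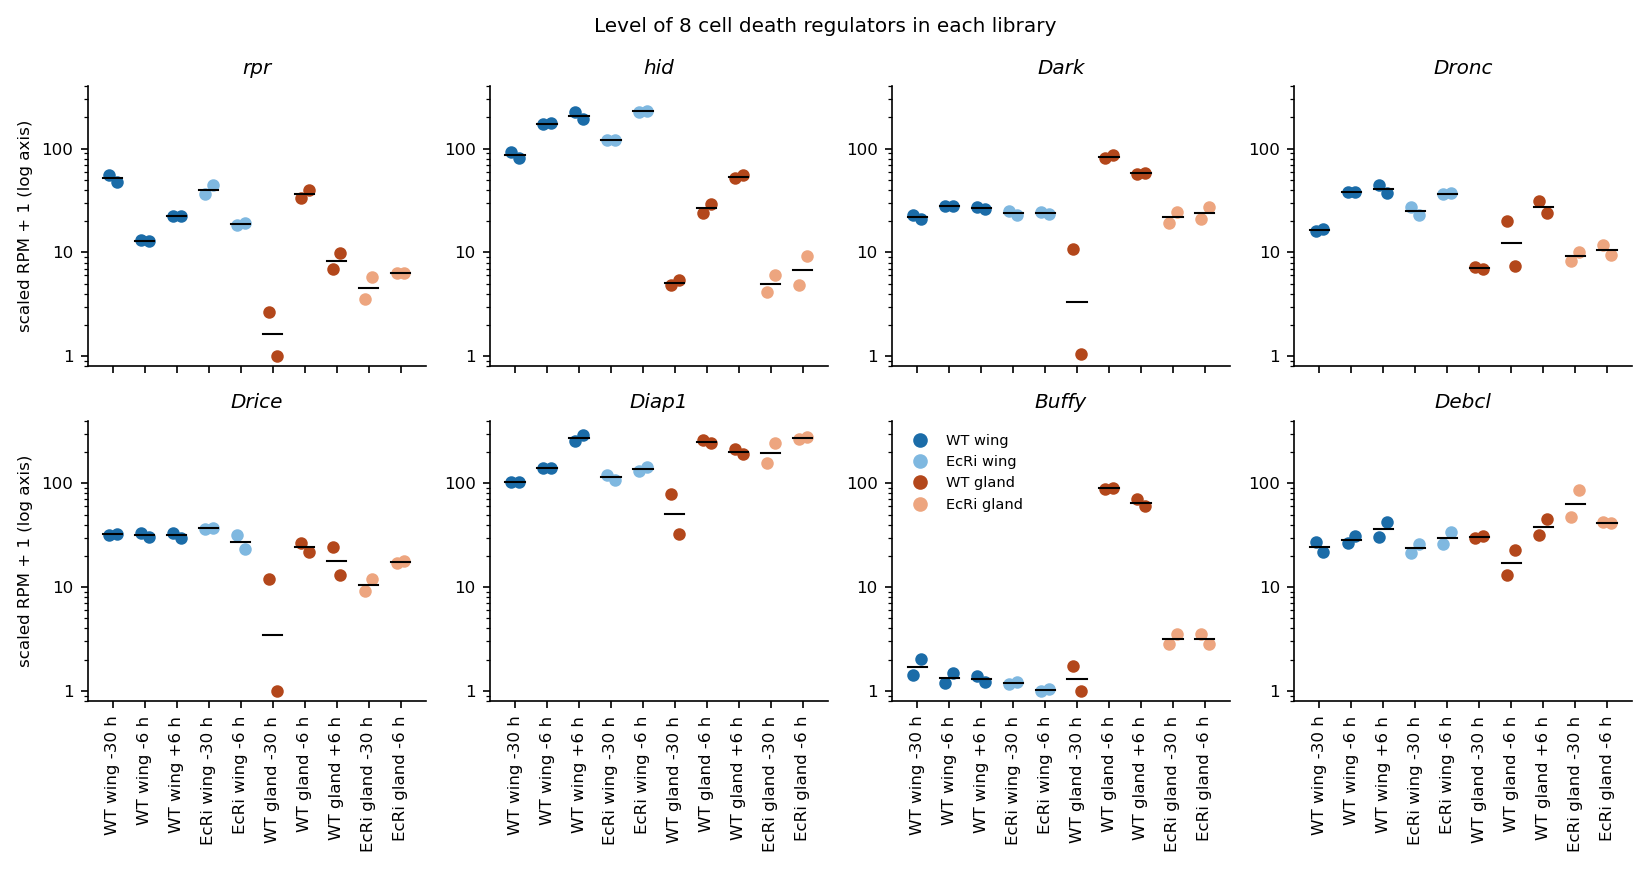
Level of the 8 tested genes in each of the 20 libraries, as scaled RPM + 1 on a log axis; points are libraries and bars the geometric mean of the 2. Buffy stands between 58.9 and 89.5 scaled RPM in the WT gland at -6 h and +6 h and at or under 2.56 everywhere else, and in the WT gland at -30 h rpr, Dark and Drice are at or near 0 in replicate 2 and not in replicate 1.

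Between -30 h and -6 h most of these genes rose in the WT gland. Of the 8 tested, 6 rose and none fell, against 34.8% of all tested genes called in either direction, and their median change was 2.59 against 0.12 over all genes. Without scaling 3 rose (Buffy, rpr and Dark) and 2 fell (Debcl and Dronc), where the rise of Dark rests on replicate 2 at -30 h. The fitted rise was largest for Buffy, a Bcl-2 family gene. Those of Dark, the apoptosome scaffold, and rpr, a death activator, came next, and their order turned without replicate 2 at -30 h. The plot of changes in the gland over this interval shows all 8.

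Among the death activators, rpr stood at 1.69 and 0 at -30 h and at 32.4 and 38.9 at -6 h. Both later libraries lay far above both earlier ones, and rpr rose by 4.48 ± 0.37 (adjusted p = 3.54e-07). Without replicate 2 at -30 h, where rpr had no read against 37 in replicate 1, the rise was 3.76 ± 0.27 (adjusted p = 5.26e-08). hid, whose protein also binds Diap1, went from 3.89 and 4.38 to 23.1 and 28.5. The groups did not overlap, and hid rose by 2.38 ± 0.25 (adjusted p = 3.21e-06). The deposited RPKM of hid stood at 0.268 and 0.301 before and 0.312 and 0.312 after, and unscaled values gave 0.10 ± 0.29 (adjusted p = 0.827). Without scaling the median of all genes was -1.33 in this interval, and relative to that median hid was higher by 1.43 and rpr by 5.47. The rise of hid is thus a rise relative to other genes of the gland and not in its share of all reads.

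In the apoptosome and caspase group, Dark stood at 9.69 and 0.0476 at -30 h and at 80.4 and 84.9 at -6 h. Dark rose by 4.64 ± 0.67 (adjusted p = 5.75e-05), and by 2.97 ± 0.19 without replicate 2 at -30 h, where it had 1 read against 212 in replicate 1. The deposited RPKM of Dark was 1.792 and 0.008771 at -30 h and 2.913 and 2.498 at -6 h. Set against replicate 1 at -30 h, the unscaled step is thus under 2-fold. No fit was run without both scaling and that library. Dark overlaps the antisense gene asRNA:CR44390, which stood at 0.914 and 0 before and 10.7 and 10.4 after, and the sources used here do not state whether the counting used strand. Drice, the effector caspase gene, stood at 10.9 and 0 before and at 25.8 and 20.8 after. Its rise was 2.81 ± 0.74 (adjusted p = 0.00618). Without replicate 2 at -30 h the rise was 1.03 ± 0.30 (adjusted p = 0.00982) and without replicate 1 it was 4.58 ± 0.30, so its size depended on which library stood for -30 h. A fit of the 4 compared libraries alone did not call Drice (2.30, adjusted p = 0.124), nor did unscaled values (1.70 ± 1.28, adjusted p = 0.309). Dronc, the initiator caspase gene, moved from 6.17 and 5.91 to 19.2 and 6.48, with replicates that disagreed at -6 h. Its difference of 0.80 ± 0.34 (adjusted p = 0.0699) was not called, was 1.52 ± 0.25 without replicate 2 at -6 h (adjusted p = 0.000333), and turned to -1.49 ± 0.38 without scaling.

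Diap1, the inhibitor that the death activators bind, rose with them. It stood at 77.6 and 31.1 at -30 h and at 258.5 and 242 at -6 h, a rise of 2.32 ± 0.30 (adjusted p = 1.90e-05). Without replicate 2 at -30 h the rise was 1.68 ± 0.19 (adjusted p = 4.86e-06), and without scaling the sign turned (-0.15 ± 0.31, adjusted p = 0.737), which is 1.18 above the median of all genes.

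Of the Bcl-2 family genes Buffy rose and Debcl was not called. Buffy, described in flies as the family member that protects cells, went from 0.732 and 0 to 87.9 and 89.5, or from 16 and 0 reads to 385 and 387. Buffy rose by 6.09 ± 0.29 (adjusted p = 2.35e-09), by 5.69 ± 0.27 without replicate 2 at -30 h and by 3.98 ± 0.34 without scaling. The gene CG13196, which lies within Buffy on the opposite strand, had no read in the WT gland at -6 h or +6 h. Debcl, described in flies as the family member that promotes death, moved from 28.5 and 29.9 to 12.1 and 21.8. Its difference of -0.81 ± 0.31 (adjusted p = 0.0491) did not reach 2-fold. Without replicate 2 at -6 h Debcl was lower by -1.22 ± 0.35 (adjusted p = 0.0157), and without scaling by -3.20 ± 0.28 (adjusted p = 4.56e-07).

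**Figure D2:**
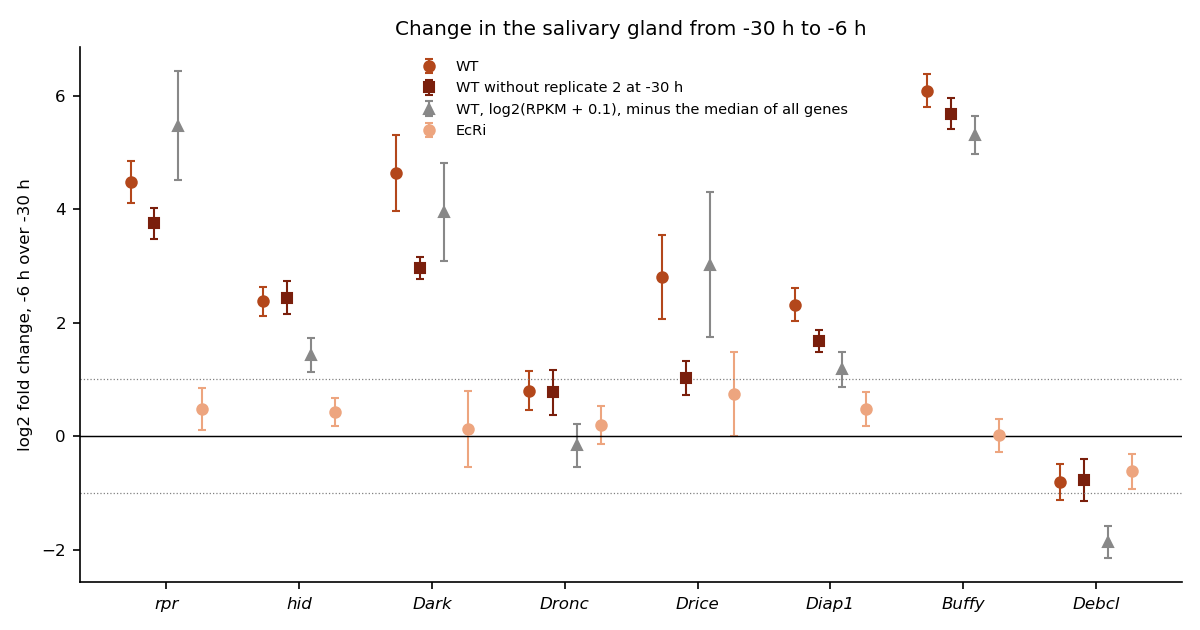
Log2 fold change of the 8 tested genes in the salivary gland, -6 h over -30 h; points are limma estimates and bars standard errors, for WT, WT without replicate 2 at -30 h, unscaled WT values relative to the median of all genes, and EcRi. Dotted lines mark a 2-fold change. In WT, Buffy, Dark and rpr lie between 4.48 and 6.09, while in EcRi all 8 lie between -0.62 and 0.74.

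From -6 h to +6 h rpr fell and hid rose in the WT gland. Of the 8 tested genes 3 rose and 1 fell, against 30.6% of all tested genes called in this interval, and 3 of the 5 tracheal markers rose in it too, whose part in these results was not tested. The level of rpr went from 32.4 and 38.9 to 5.96 and 8.91, and rpr fell (-2.14 ± 0.37, adjusted p = 0.000329). The level of hid went from 23.1 and 28.5 to 50.9 and 54.1, a rise of 1.01 ± 0.25 (adjusted p = 0.00470). The 2 activators thus moved in opposite directions across puparium formation, with no overlap between the libraries of either gene. The call of hid lies at the 2-fold limit and was lost without replicate 1 at -6 h (0.87 ± 0.31, adjusted p = 0.0425) and without replicate 2 at +6 h (0.96 ± 0.31, adjusted p = 0.0311). The call of rpr was lost with voom weights (-2.28, adjusted p = 0.116) and without scaling (-1.65, adjusted p = 0.226).

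Of the other genes in this interval, Dronc went from 19.2 and 6.48 to 30.4 and 22.9 and rose by 1.16 ± 0.34 (adjusted p = 0.0134). This call was lost without replicate 2 at -6 h (0.46 ± 0.25, adjusted p = 0.187) and without replicate 1 at +6 h (0.99 ± 0.43, adjusted p = 0.0945). It was 1.89 ± 0.25 without replicate 1 at -6 h. Debcl went from 12.1 and 21.8 to 30.8 and 44.7 and rose by 1.14 ± 0.31 (adjusted p = 0.00881), a call lost without replicate 1 at -6 h (0.75 ± 0.35, adjusted p = 0.123) and without replicate 2 at +6 h (0.88 ± 0.38, adjusted p = 0.0986). The 3 rises were not called with voom weights, nor in a fit of the compared libraries alone. Dark, at 56.0 and 57.4, and Buffy, at 68.8 and 58.9, stood above their -30 h levels on scaled values, which was not tested. The TMM factors were 0.3115 and 0.3466 at +6 h, against 1.235 and 1.23 at -30 h. The deposited RPKM of Dark went from 1.792 and 0.008771 at -30 h to 2.615 and 2.982 at +6 h. That of Buffy went from 0.09963 and 0 to 2.364 and 2.251. The differences of Dark and Buffy from -6 h were -0.53 ± 0.67 (adjusted p = 0.583) and -0.47 ± 0.29 (adjusted p = 0.230). Diap1 (210 and 192) and Drice (23.1 and 12.1) gave -0.31 ± 0.30 and -0.44 ± 0.74 and were not called.

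In the WT wing the early interval moved rpr the other way. Of the 8 tested genes 2 rose and 1 fell, against 5.26% of all tested genes called. The level of rpr went from 54.9 and 46.4 at -30 h to 12.1 and 11.9 at -6 h, and rpr fell (-1.99 ± 0.37, adjusted p = 0.00392). This is the opposite of its change in the gland, and the difference between the tissues was 6.46 ± 0.53 (adjusted p = 1.10e-06). The level of hid went from 92.2 and 79.3 to 171.6 and 174.1, a rise of 1.01 ± 0.25 (adjusted p = 0.0237), and that of Dronc from 15.2 and 15.7 to 37.2 and 37.6, a rise of 1.22 ± 0.34 (adjusted p = 0.0452). Replicates of both genes agreed closely, but both adjusted p-values lie near the threshold. Leaving out any 1 of the 4 libraries lost both calls, with hid at 0.91 to 1.17 and adjusted p of 0.0508 to 0.179, and Dronc at 1.22 to 1.28 and adjusted p of 0.133 to 0.209. In a fit of the 4 compared libraries alone, which does not take in the spread of the gland libraries, all 3 genes were called (adjusted p of 2.29e-05 for rpr and 0.000254 for hid and Dronc). The call of rpr was lost with a pseudocount of 0.25, and all 3 calls were lost without scaling. The deposited RPKM still moved the same way without overlap. That of rpr went from 118.0 and 101.2 to 23.93 and 23.8. That of hid went from 9.976 and 8.701 to 17.13 and 17.52, and that of Dronc from 11.65 and 12.24 to 26.36 and 26.81. Dark, Drice, Diap1 and Debcl gave differences between -0.01 and 0.45, none called, and Buffy stayed at or under 1.06 scaled RPM in every wing library.

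From -6 h to +6 h none of the 8 genes was called in the WT wing by limma, against 16.5% of all tested genes. At an unadjusted p under 0.05 there was 1, Diap1, which went from 138.9 and 140.0 to 253 and 288, and with voom weights 0 were called. Its difference of 0.95 ± 0.30 (adjusted p = 0.0305) stopped short of 2-fold, and it was called with median-of-ratios scaling. The level of rpr went from 12.1 and 11.9 to 21.2 and 21.4, without overlap, and gave 0.78 ± 0.37 (adjusted p = 0.166). hid reached 224 and 190.5, a difference of 0.26 ± 0.25 (adjusted p = 0.587).

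The tissues differed in which genes they held at a high level, as the plot of gland over wing differences shows. At -30 h 6 of the 8 tested genes were lower in the WT gland than in the WT wing and none was higher, against 30.9% of all tested genes called. The differences were -4.97 ± 0.37 for rpr, -4.08 ± 0.25 for hid, -3.22 ± 0.74 for Drice, -2.70 ± 0.67 for Dark, -1.23 ± 0.34 for Dronc and -1.03 ± 0.30 for Diap1. Without replicate 2 of the gland they were -4.25 for rpr, -4.14 for hid, -1.44 for Drice, -1.02 for Dark and -1.20 for Dronc, all still called, and -0.39 for Diap1, which was not. Leaving out replicate 1 or 2 of the wing lost the calls of Dronc (-1.13 and -1.13) and Diap1 (-0.91 and -0.94), and a fit of the compared libraries alone kept those of rpr and hid and no other. Without replicate 1 of the gland Drice was at -4.99, Dark at -4.36 and Diap1 at -1.68.

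At -6 h 4 of the 8 were called between the tissues, against 44.4% of all tested genes, so the share of the members is near that of all genes. Buffy was higher in the gland by 6.07 ± 0.29 (adjusted p = 1.24e-09), with 0.193 and 0.490 in the wing. rpr was higher by 1.49 ± 0.37 (adjusted p = 0.00349), a call lost with a pseudocount of 0.25 and a difference that turned to -1.46 ± 0.96 (adjusted p = 0.185) without scaling, where the median of all genes was -2.63. hid was lower in the gland by -2.71 ± 0.25 (adjusted p = 5.04e-07) and Dronc by -1.64 ± 0.34 (adjusted p = 0.000857), or by -0.94 ± 0.25 without replicate 2 of the gland, under 2-fold. Dark, at 80.4 and 84.9 in the gland and 26.9 and 26.8 in the wing, gave 1.59 ± 0.67 (adjusted p = 0.0571). With replicate 2 of the WT gland at -30 h left out of the fit, which sets the pooled spread of Dark, the difference was 1.59 ± 0.15 (adjusted p = 2.89e-07). Without scaling Dark turned to -1.39 ± 0.87 (adjusted p = 0.164), so which tissue holds more of it depends on the scaling. Debcl gave -0.73 ± 0.31 (adjusted p = 0.0609), or -1.15 ± 0.35 without replicate 2 of the gland (adjusted p = 0.0164).

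At +6 h 3 of the 8 were called, against 47.1% of all tested genes, again no larger a share than among all genes. Buffy was again higher in the gland, by 5.63 ± 0.29 (adjusted p = 1.70e-09). hid was lower by -1.96 ± 0.25 (adjusted p = 1.12e-05) and rpr by -1.43 ± 0.37 (adjusted p = 0.00444), the latter not called without replicate 1 of the gland (-1.16 ± 0.47, adjusted p = 0.0574) with voom weights or with a pseudocount of 0.25. Dark gave 1.11 ± 0.67 (adjusted p = 0.173), and 1.11 ± 0.15 (adjusted p = 1.23e-05) when the fit left out replicate 2 of the WT gland at -30 h, but turned to -0.80 ± 0.87 (adjusted p = 0.424) without scaling.

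**Figure D3:**
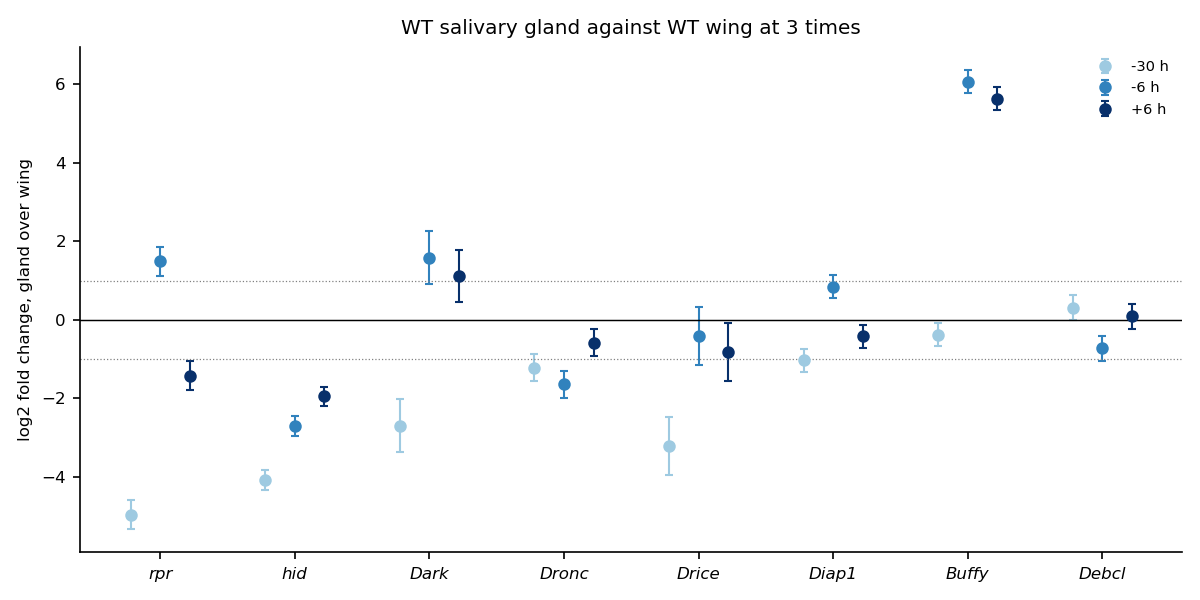
Log2 fold change of the 8 tested genes, WT gland over WT wing, at -30, -6 and +6 h; points are limma estimates, bars standard errors, and dotted lines mark a 2-fold difference. hid lies at -4.08, -2.71 and -1.96, Buffy at 6.07 and 5.63 from -6 h on, and rpr goes from -4.97 to 1.49 (-1.46 without scaling) and back to -1.43.

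In EcRi glands no early rise was called. From -30 h to -6 h none of the 8 genes was called in EcRi glands by limma, against 4.42% of all tested genes, with 0 at an unadjusted p under 0.05 and 0 with voom weights. The level of rpr was 2.56 and 4.80 at -30 h and 5.38 and 5.33 at -6 h, that of Dark 18.3 and 23.7 and then 19.98 and 26.3, and that of Buffy 1.82 and 2.51 and then 2.56 and 1.84. The libraries of Dark and Buffy overlapped between the times. hid stood at 3.17 and 5.03 and then at 3.89 and 8.24, with overlap. Diap1 stood at 157 and 241 and then at 267 and 275.5, and Debcl at 46.4 and 84.7 and then at 40.9 and 40.1. Drice stood at 8.09 and 10.9 and then at 15.9 and 16.9. The libraries of rpr, Diap1 and Drice did not overlap between the times and lay higher at -6 h. Those of Debcl did not overlap either and lay lower at -6 h.

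The test of the difference itself, the EcRi change minus the WT change in the gland, called 5 of the 8, all lower, against 26.4% of all tested genes. The values were -6.08 ± 0.42 for Buffy (adjusted p = 2.63e-07), -4.51 ± 0.95 for Dark (adjusted p = 0.00241), -3.99 ± 0.53 for rpr (adjusted p = 6.86e-05), -1.95 ± 0.35 for hid (adjusted p = 0.000822) and -1.85 ± 0.42 for Diap1 (adjusted p = 0.00409). Without replicate 2 of the WT gland at -30 h they were -5.67, -2.84, -3.27, -2.02 and -1.20, in the same order, and all 5 were still called. Without scaling Buffy alone was still called lower (-3.65 ± 0.48). There rpr (-3.08 ± 1.36, adjusted p = 0.0761) and Dark (-2.03 ± 1.22, adjusted p = 0.198) lost their calls and hid and Diap1 turned sign (0.61 ± 0.41 and 1.10 ± 0.44), where the median of all genes was 1.94. In a fit of the compared libraries alone hid (-1.87, adjusted p = 0.0803) and Diap1 (-1.83, adjusted p = 0.0550) were not called, and with voom weights hid was not called (-2.15, adjusted p = 0.0542).

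At -6 h, when EcR was lower in EcRi glands on the scaled values and not called without scaling, 5 of the 8 genes differed from WT, against 26.6% of all tested genes. Buffy was lower by -4.82 ± 0.29 (adjusted p = 2.60e-08), with 2.56 and 1.84 in EcRi against 87.9 and 89.5 in WT. rpr was lower by -2.52 ± 0.37 (adjusted p = 0.000101), with 5.38 and 5.33 against 32.4 and 38.9. The libraries of both genes lay far apart. hid was lower by -1.99 ± 0.25 (adjusted p = 2.40e-05) and Dark by -1.81 ± 0.67 (adjusted p = 0.0477). The Dark call was lost when any 1 of the 4 libraries was left out, with -1.995 to -1.615 and adjusted p of 0.105 to 0.187, and was -1.80 ± 0.15 (adjusted p = 1.90e-07) when the fit left out replicate 2 of the WT gland at -30 h. Without scaling the difference of rpr was -0.47 ± 0.96 (adjusted p = 0.685), and hid (0.09 ± 0.29) and Dark (0.40 ± 0.87) turned sign, where the median of all genes was 1.94. Debcl was higher in EcRi, 40.9 and 40.1 against 12.1 and 21.8, by 1.26 ± 0.31 (adjusted p = 0.00542), a call lost without replicate 1 of WT (0.84 ± 0.35, adjusted p = 0.0939) and with voom weights. Diap1 gave 0.12 ± 0.30 (adjusted p = 0.824).

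At -30 h, when EcR was not called between the libraries labelled EcRi and WT, 5 of the 8 genes were higher in EcRi glands, against 12.6% of all tested genes. They were Dark (2.71 ± 0.67), Diap1 (1.96 ± 0.30), rpr (1.47 ± 0.37), Buffy (1.26 ± 0.29) and Debcl (1.08 ± 0.31). All 5 use the WT library that stood apart. Without it Dark (1.03 ± 0.19, adjusted p = 0.00188) and Diap1 (1.32 ± 0.19, adjusted p = 0.000372) were still called, while rpr (0.75 ± 0.27), Buffy (0.86 ± 0.27) and Debcl (1.11 ± 0.37, adjusted p = 0.0587) were not. Without replicate 2 of EcRi, Diap1 alone was called, with Dark at 2.55 ± 0.86 (adjusted p = 0.0992), rpr at 1.13, Buffy at 1.11 and Debcl at 0.65. A fit of the compared libraries alone called none of the 5, and without replicate 1 of WT, Drice was called as well (3.36 ± 0.30) and Dark stood at 4.37. The summed fat body markers were 14380 and 21030 in these EcRi libraries against 7275 and 3607 in WT, with 1 of 6 called higher. The ecdysone-response gene Hr4 stood at a mean of 358 against 7.48. Hr4 is 1 gene picked from a list of 12 such regulators and does not stand for that list. Their part in these differences was not tested.

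In the wing no difference between EcRi and WT was detected for these genes. None of the 8 was called at -30 h, against 2.24% of all tested genes, or at -6 h, against 1.8%, with 0 at an unadjusted p under 0.05 and 0 with voom weights at either time, and the lowest adjusted p was 0.556. The widest differences were 0.60 ± 0.34 for Dronc at -30 h and 0.53 ± 0.37 for rpr at -6 h, 17.5 and 18.1 in EcRi against 12.1 and 11.9 in WT. Over the early interval of EcRi wings none of the 8 was called, against 2.92% of all tested genes, while 2 had an unadjusted p under 0.05 and 1 was called with voom weights. The level of rpr went from 35.2 and 43.5 to 17.5 and 18.1 (-1.10 ± 0.37, adjusted p = 0.152), and that of hid from 120.5 and 121 to 225 and 230.3 (0.91 ± 0.25, adjusted p = 0.0626). Both genes moved in the direction of the WT wing, and rpr was called (-1.10 ± 0.22, adjusted p = 0.00608) when the fit left out replicate 2 of the WT gland at -30 h. The difference between the EcRi and the WT wing change called none of the 8, against 0.795% of all tested genes, with 0 at an unadjusted p under 0.05 and 0 with voom weights, and stood at 0.89 ± 0.53 for rpr and -0.10 ± 0.35 for hid.

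**Figure D4:**
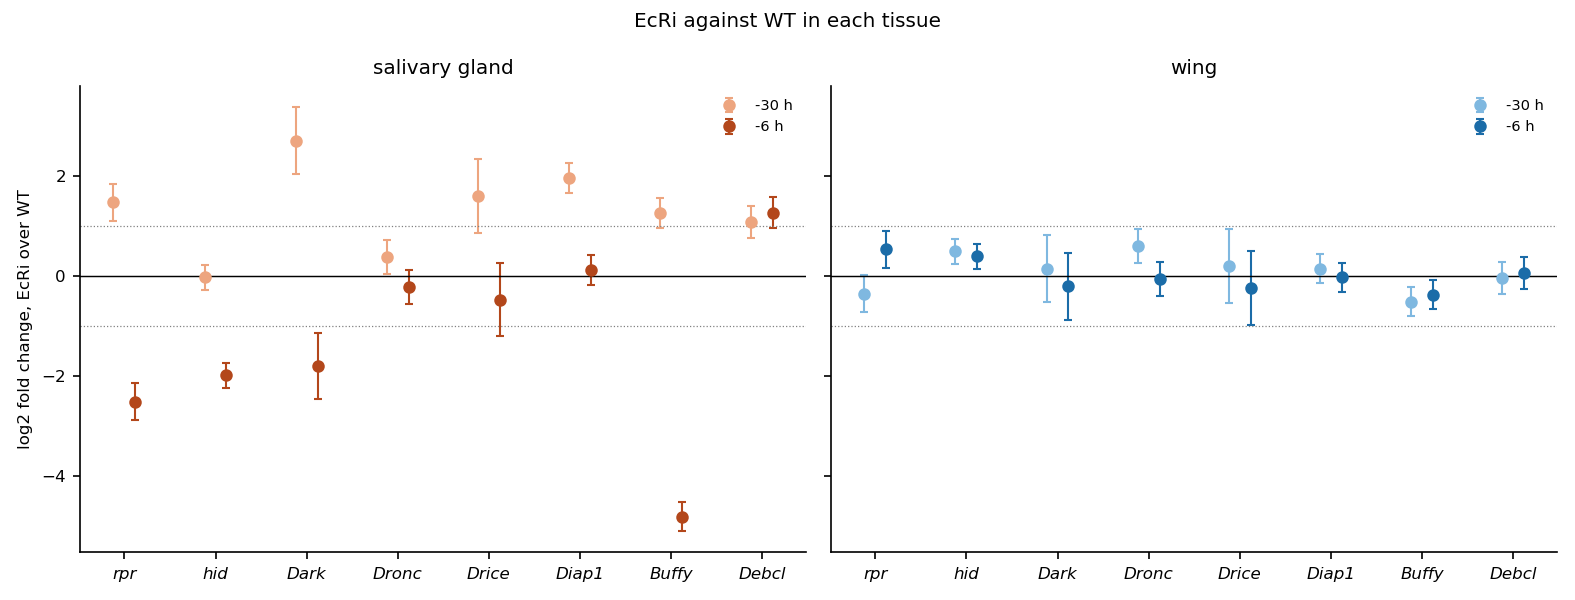
Log2 fold change of the 8 tested genes, EcRi over WT, in salivary glands (left) and wings (right) at -30 h and -6 h; points are limma estimates, bars standard errors, and dotted lines mark a 2-fold difference. In the gland at -6 h Buffy (-4.82), rpr (-2.52), hid (-1.99) and Dark (-1.81) lie below the lower line (without scaling hid and Dark turn sign), while every wing point lies between -0.52 and 0.60.

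The EcRi effect at -6 h differed between the tissues for 3 of the 8 genes, against 21.5% of all tested genes. The gland effect minus the wing effect was -4.44 ± 0.42 for Buffy (adjusted p = 4.55e-06), -3.05 ± 0.53 for rpr (adjusted p = 0.000723) and -2.38 ± 0.35 for hid (adjusted p = 0.000221). With voom weights the Buffy value was -2.12 and was not called (adjusted p = 0.433). Buffy had 0 and 2 reads in EcRi wings at that time. Without scaling only the Buffy call was kept among the 3. Dark gave -1.60 ± 0.95 (adjusted p = 0.261) and -1.60 ± 0.22 (adjusted p = 4.27e-05) when the fit left out replicate 2 of the WT gland at -30 h, and turned to 0.64 ± 1.22 without scaling. Debcl gave 1.21 ± 0.44 (adjusted p = 0.0628) and was called under that alternative (1.21 ± 0.43, adjusted p = 0.0366) and without replicate 2 of the WT gland at -6 h (1.59 ± 0.46).

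Between the WT tissues, the early change differed for 5 of the 8 genes, against 28.3% of all tested genes, and the late change for 2, against 27.1%. The early gland change exceeded that of the wing by 6.46 ± 0.53 for rpr, 6.45 ± 0.42 for Buffy, 4.29 ± 0.95 for Dark, 1.87 ± 0.42 for Diap1 and 1.37 ± 0.35 for hid. Without replicate 2 of the WT gland at -30 h these were 5.74, 6.04, 2.61, 1.23 and 1.44, all still called, and Drice (1.03 ± 0.38, adjusted p = 0.0443) was called too. The hid call was lost without replicate 1 of the wing at -30 h (1.09 ± 0.41) or at -6 h (1.18 ± 0.42), and without scaling hid (-0.79 ± 0.41) and Diap1 (-0.48 ± 0.44) turned sign and Dark was not called (2.38 ± 1.22, adjusted p = 0.133). A fit of the compared libraries alone lost Dark (4.17, adjusted p = 0.0730) and Diap1 (1.71, adjusted p = 0.0568). In the late interval the change of rpr was lower in the gland than in the wing (-2.92 ± 0.53, adjusted p = 0.000701), and so was that of Diap1 (-1.26 ± 0.42, adjusted p = 0.0332). The rpr call was lost with voom weights (-3.11, adjusted p = 0.0582), and both were lost without scaling (-1.999 ± 1.36 and -0.20 ± 0.44). The Diap1 call was lost when any 1 of 6 of the 8 libraries was left out, with -1.35 to -1.16 and adjusted p of 0.0593 to 0.107.

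Ratios of reads within a library do not depend on the scaling, and 3 of them were chosen after the values were seen. Given without a test, they show how the balance between members differed between groups. In the WT wing there were 1.68 and 1.71 hid reads per rpr read at -30 h, 14.2 and 14.6 at -6 h, and 10.6 and 8.89 at +6 h. In EcRi wings the ratio went from 3.43 and 2.79 to 12.9 and 12.8. The wing thus moved toward hid in both genotypes. In the WT gland the ratio was 2.30 at -30 h in replicate 1 (rpr had no read in replicate 2), 0.711 and 0.732 at -6 h, and 8.55 and 6.07 at +6 h. Among WT groups the gland at -6 h was the one with more rpr than hid reads, on 142 and 168 rpr reads. EcRi glands lay at 1.24 and 1.05 and then at 0.723 and 1.54. Reads are not adjusted for length, and hid spans 17897 bases against 901 for rpr. On deposited RPKM rpr exceeded hid in every WT library with an rpr read, as with 23.93 against 17.13 in replicate 1 of the wing at -6 h. That RPKM divides hid by its whole span, of which 4018 bases are exonic, whereas rpr is exonic throughout. The ratio thus compares groups, and neither it nor the RPKM shows which gene prevails.

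The reads of rpr per Diap1 read, an activator set against its target, stood at 0.543 and 0.454 in the WT wing at -30 h and fell in level to 0.0869 and 0.0850 at -6 h. In the WT gland they stood at 0.0218 and 0 at -30 h, 0.125 and 0.161 at -6 h, and 0.0283 and 0.0464 at +6 h. EcRi glands lay between 0.0163 and 0.0202 in all 4 libraries. On this ratio the WT gland at -6 h was the only gland group above 0.1, and the WT wing at -30 h stood higher still. A further ratio, hid reads per Diap1 read, is not plotted and did not set that group apart. In the WT gland it was 0.0501 and 0.141 at -30 h and 0.0892 and 0.118 at -6 h, with overlap. It reached 0.242 and 0.282 there at +6 h. There were 7.26 and 4.12 Buffy reads per Debcl read in the WT gland at -6 h and 2.24 and 1.32 at +6 h. In every other library the ratio was at most 0.0625.

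**Figure D5:**
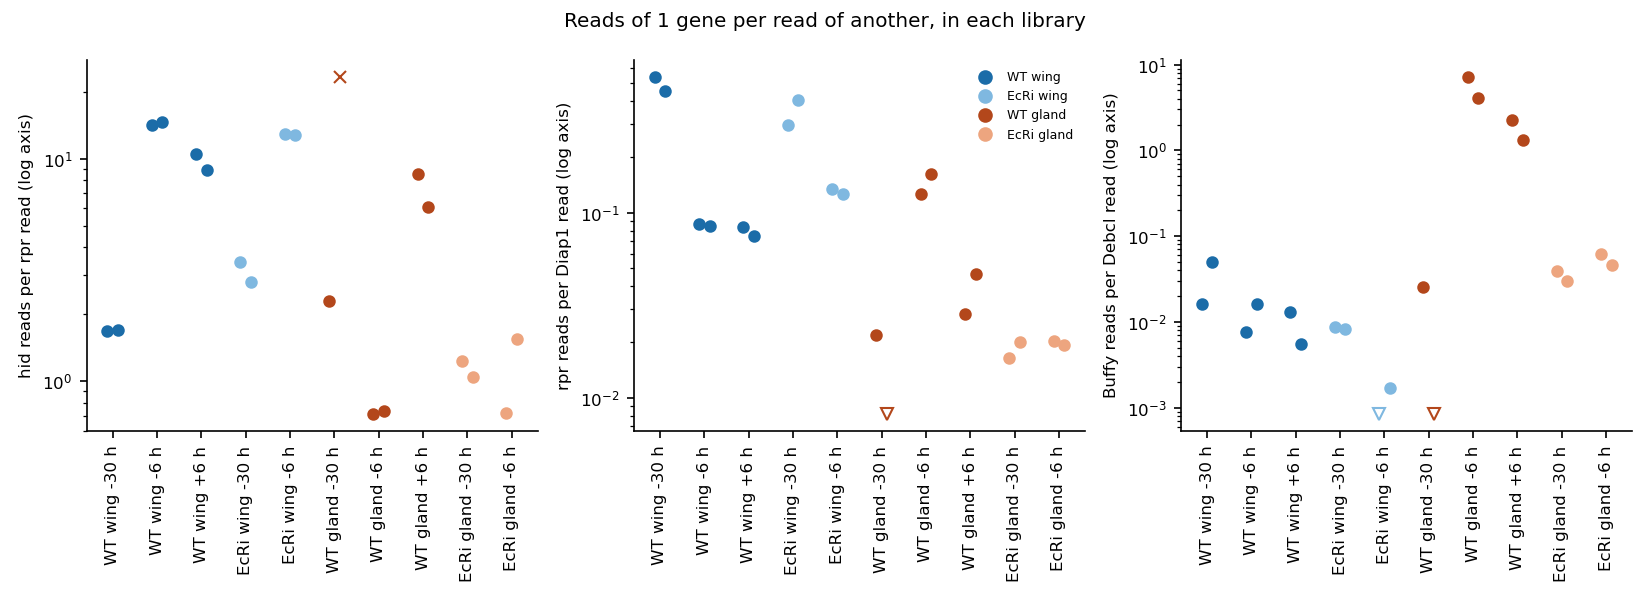
Reads of hid per rpr read, of rpr per Diap1 read and of Buffy per Debcl read in each library, on log axes; points are libraries, open triangles mark a ratio of 0 and the cross a library with no rpr read. The WT gland at -6 h has the lowest hid to rpr ratios among WT groups (0.711 and 0.732) and the highest Buffy to Debcl ratios (7.26 and 4.12).

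Ordered by their mean level over the 10 groups, the members differed in pattern. rpr was highest in the WT wing at -30 h (50.7) and the EcRi wing at -30 h (39.3), and the latter overlapped the WT gland at -6 h (35.7). hid was highest in wings, from 227 in EcRi wings at -6 h to 85.8 in WT wings at -30 h, with every gland group below (52.5 at most). Dronc ran from 40.15 in the WT wing at +6 h to 6.04 in the WT gland at -30 h. Drice ran from 26.3 to 35.7 in wings, with its 3 WT wing groups overlapping. Diap1 was highest in EcRi glands at -6 h (271) and the WT wing at +6 h (270.5), which overlapped, and lowest in the WT gland at -30 h (54.4). Dark and Buffy were highest in the WT gland at -6 h (82.7 and 88.7) and at +6 h (56.7 and 63.8). For Dark this order depends on the scaling, and for other members it does so in part. The deposited RPKM of Dark was 2.913 and 2.498 in the WT gland at -6 h and 2.615 and 2.982 at +6 h, against 4.829 to 7.232 in wings. That of rpr was 8.708 and 8.475 in the WT gland at -6 h, against 72.47 and 89.12 in the EcRi wing at -30 h. In the WT gland that of Diap1 was 7.588 and 3.034 at -30 h and 4.954 and 3.766 at -6 h. That of Dronc was 3.02 and 2.877 there at -30 h and 1.839 and 0.5042 at -6 h. Debcl was highest in EcRi glands at -30 h (65.5) and lowest in the WT gland at -6 h (16.9).

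The genes most like each member, by Pearson correlation of group means over the 10 groups among 5771 genes reaching 20 scaled RPM, differed between members. These r values describe 10 means that share their tissues and scaling, and carry no test. The closest to rpr was the chitinase gene Cht7 (r = 0.929), followed by CG17385 (0.902) and stg, the mitotic phosphatase gene string (0.896). For hid they were nonA (0.998), CG32373 (0.991) and CG34401 (0.987), and for Dark ZC3H3 (0.980), Tip60 (0.979) and CG5555 (0.974). Buffy was most like the non-coding gene lncRNA:CR44748 (0.987), the autophagy gene Atg2 (0.984) and the transporter gene Orct (0.981). Dronc was most like CG4455 (0.978), kuz (0.969) and Alh (0.968), and Drice like abs (0.974), Dd (0.970) and MBD-like (0.965). For Diap1 they were be (0.962), Nulp1 (0.957) and tamo (0.953), and for Debcl CG34417 (0.898), kst (0.886) and CG33181 (0.884).

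The counts for other genes of the pathway stand against the same shares over all tested genes, 34.8% in the early and 30.6% in the late WT gland and 26.6% for EcRi against WT glands at -6 h, and nothing particular to a list is read from them. All values of these lists are scaled ones, and none is given without scaling. The TMM factors of the WT gland were 1.235 and 1.23 at -30 h and 0.242 and 0.1964 at -6 h. Whether the list calls hold in the share of reads is therefore not shown. In the early WT gland, of 5 further caspase genes 1 rose and none fell. It was Strica, a caspase gene with a long prodomain, which went from 38.3 to 230 in group mean (2.56 ± 0.22, adjusted p = 4.09e-07), fell to 80.3 at +6 h (-1.51 ± 0.22) and was lower in EcRi than in WT glands at -6 h (-1.56 ± 0.22). Of 6 genes listed for other inhibitors of apoptosis, the ubiquitin pathway and partners of these, 1 rose and 1 fell. The riser was Diap2 (2.11 ± 0.26, adjusted p = 1.20e-05), which was also lower in EcRi glands at -6 h (-1.26 ± 0.26), and HtrA2 fell (-1.07), from 7.88 to 3.22. Of 10 upstream death signals 1 rose, the JNK phosphatase gene puc (1.54 ± 0.18), and 1 fell, the checkpoint kinase gene lok (-2.42 ± 0.29). Without replicate 2 of the WT gland at -30 h the counts for the 3 lists were 1 and 0, 1 and 0, and 2 and 1, with HtrA2 at -0.90 and not called.

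Among 13 tested genes of execution and engulfment, 5 rose and 1 fell in that interval, or 3 and 1 without replicate 2 at -30 h. Drep1 and Drep4, of the DNA fragmentation factor family, rose by 2.39 ± 0.58 and 2.05 ± 0.38, and the engulfment receptor gene crq by 2.33 ± 0.47, while the cytochrome c gene Cyt-c-p fell (-2.38 ± 0.29). Leaving out that library moved Drep1 to 1.03 and crq to 1.20, both still called. From -6 h to +6 h 4 rose and 1 fell, with Drep1 up by 3.99 ± 0.58 and the engulfment receptor gene drpr by 1.66 ± 0.15. Of 12 regulators of the ecdysone response 9 rose and none fell in the early interval (9 and 1 without replicate 2 at -30 h), among them the nuclear receptor genes Eip78C (8.89 ± 0.44) and Hr4 (6.44 ± 0.36), and 8 were lower and 1 higher in EcRi than in WT glands at -6 h. Of 4 gland survival factors, 1 rose early (CrebA, 1.13 ± 0.23) and none fell, or 1 and 1 without replicate 2 at -30 h. The one called lower there was fkh, which in flies represses rpr and hid in the gland. It gave -0.44 ± 0.37 early (adjusted p = 0.373), or -1.06 without that library (adjusted p = 0.0164), and fell from -6 h to +6 h (-2.85 ± 0.37, adjusted p = 2.38e-05).

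The authors' deposited table for the WT gland from -30 h to -6 h gave 7.75 ± 0.76 for Buffy, 5.14 ± 0.77 for rpr, 3.44 ± 0.98 for Dark, 2.67 ± 0.31 for hid and 2.24 ± 0.33 for Diap1. In the same authors' deposited table Dronc had 1.10 (adjusted p = 0.00242) and Drice 1.43 (adjusted p = 0.0958), so these 2 caspase genes change places relative to the limma calls. For EcRi against WT glands at -6 h the authors' deposited table gave -5.19 for Buffy, -2.36 for rpr, -2.15 for hid and -1.12 for Dark, the last with adjusted p = 0.109. For gland against wing, their adjusted p was 0.0740 for Dark and 0.0541 for Drice at -30 h, and 0.0795 for rpr at +6 h. For Dark in EcRi against WT glands at -30 h it was 0.0925. It was under 0.05 for the remaining calls, interactions aside. Some of their fold changes are smaller than those of limma, such as -0.171 for rpr in EcRi wings, so sizes are not compared.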

How the data were processed

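RNA-seq of 20 libraries, 2 in each of 10 groups, was analysed from the deposited matrix. Per the submitters' processing notes, reads were aligned to dm6 with STAR 2.7.3a and handled with SAMtools 1.9. The matrix deposited by the authors is named as counts but holds RPKM over gene spans: the length its values imply lay within 1% of the span for 99.9% of 7658 genes, against 27.9% for exonic length. The authors' deposited tables give log2 fold changes and adjusted p-values from DESeq2, per the submitters' processing notes. Of 17606 genes, 4 had no values and 9 gave no reads. Reads were recovered from the step of each library, and all 64951 values of at most 20 reads (100%) lay within 0.1 of a whole number. Spans and positions are from BDGP6.54, which uses the dm6 sequence. Counting software, annotation and strand use are not given in the sources used here.

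RPM were scaled by TMM (30% and 5% trims). The 10194 genes with 0.558 scaled RPM in at least 2 libraries and 15 reads in all were tested with limma 3.58.1 (trend, robust; R 4.3.3) on log2(scaled RPM + 1), with Benjamini-Hochberg adjusted p. Residual degrees of freedom were 10 and the median prior was 3.42. Fold changes of low genes are understated by the pseudocount. Count models were not used, since the deposited unit is RPKM. The procedure was run on simulated data, with all libraries drawn from a mean WT wing profile. These held no shift like that of the glue genes and no library that stood apart, so the run cannot speak to either. Alternatives covered scaling, filter, pseudocounts of 0.25 and 4, unscaled log2(RPKM + 0.1), the fold minimum, voom weights on the recovered reads, a replicate block, the compared libraries alone and leaving out each library. Leaving out replicate 2 of the WT gland at -30 h from every fit was added after seeing the data. Where a library is left out, a lone sample is assumed to vary like the other groups. The members and gene lists were chosen with earlier results of these data known. Named list genes were called genes with at least 5 scaled RPM, largest change first, at most 4 a list. The 2 deposited tables of +6 h against -30 h were not used. Figures used matplotlib 3.10.9.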

Additional observations from a re-analysis of the deposited data

Results flagged for a closer look

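These are changes that differed between tissues or genotypes by the test of the difference itself (limma, adjusted over 10194 genes). They share libraries, so they are not independent of each other, and no explanation of them was tested.

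The change from -30 h to -6 h in the gland was smaller in EcRi than in WT for Buffy (-6.08), Dark (-4.51), rpr (-3.99), hid (-1.95) and Diap1 (-1.845). Without scaling only that of Buffy was kept among the 5, and hid and Diap1 turned sign. Dark was at -2.84 and Diap1 at -1.20 without replicate 2 of the WT gland at -30 h.

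The EcRi effect at -6 h was lower in the gland than in the wing for Buffy (-4.44), rpr (-3.05) and hid (-2.38). The rpr and hid calls were lost without scaling and the Buffy call with voom weights.

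The early change in WT was higher in the gland than in the wing for rpr (6.46), Buffy (6.45), Dark (4.29), Diap1 (1.87) and hid (1.37). With replicate 2 of the WT gland at -30 h left out, Dark was at 2.61 and Diap1 at 1.23, and without replicate 1 of the WT wing at -30 h the call of hid was lost (1.09). Of these 5 genes rpr and Buffy were still called higher without scaling, and hid and Diap1 turned sign.

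The late change in WT was lower in the gland than in the wing for rpr (-2.92) and Diap1 (-1.26). The Diap1 call was lost when any 1 of 6 libraries was left out, the rpr call with voom weights, and both without scaling.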

How the results depend on the processing

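Counts below are members called of 8 tested. The shares over all tested genes given above hold for the limma fit of the Results, and those of the other settings are not given. The counts thus show how the calls of the members move with the setting, and nothing particular to the members is read from them. Without scaling, values are log2(RPKM + 0.1). In the WT gland this changed the early count from 6 higher and 0 lower to 3 and 2 and the late count of lower genes from 1 to 0. In the WT wing the early counts went from 2 higher and 1 lower to 0 and 0. For gland against wing the counts were 1 higher and 5 lower at -6 h, and 5 lower at +6 h (from 2). For EcRi against WT glands they were 2 higher at -30 h (from 5), and 3 higher and 1 lower at -6 h (from 1 and 4). For the interactions they were 3 higher and 1 lower for gland time by genotype (from 0 and 5), 3 and 1 for the EcRi effect by tissue (from 0 and 3), 2 and 2 for the early interval by tissue (from 5 and 0), and 3 and 0 for the late interval by tissue (from 0 and 2).

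Without scaling 32 of 144 signs turned, 14 of them in values called with or without scaling and 18 in values called in neither, such as Dark in gland against wing (-1.39 at -6 h and -0.80 at +6 h). The 14 were those of Dronc (-1.49) and Diap1 (-0.15) in the early WT gland, rpr (-1.46) and Diap1 (-2.17) in gland against wing at -6 h, Debcl (-1.84) at +6 h, and hid (0.085), Dark (0.395) and Dronc (1.895) in EcRi against WT glands at -6 h. In the interactions they were hid (0.61), Dronc (2.17) and Diap1 (1.10) for gland time by genotype, Dronc (2.002) for the EcRi effect by tissue, and hid (-0.79) and Diap1 (-0.48) for the early interval by tissue. By construction, unscaled values move with the share of reads that other genes take. The cause of the other changes below was not tested.

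With voom weights the late WT gland had 0 higher and 0 lower, gland against wing at +6 h 2 higher and 1 lower, EcRi against WT glands at -6 h 0 higher, EcRi wings 1 lower and the late interval by tissue 1 lower. In fits of the compared libraries alone the late WT gland had 0 higher, gland against wing 2 lower at -30 h and 2 higher at +6 h, EcRi against WT glands at -30 h 0 higher, EcRi wings 1 lower, gland time by genotype 3 lower, the EcRi effect by tissue 1 higher and the early interval by tissue 3 higher. A pseudocount of 4 gave 1 higher in the late WT gland and in the early WT wing, 2 higher in gland against wing at +6 h and 3 higher in EcRi against WT glands at -30 h. A pseudocount of 0.25 gave 1 higher and 0 lower in the early WT wing, 1 higher in gland against wing at -6 h and 1 lower at +6 h. Median-of-ratios scaling gave 1 higher in the early and in the late WT wing. Without the filter there was 1 higher in the early WT wing and 1 lower in the late interval by tissue, and without the fold minimum 1 lower in the early WT gland and 1 higher in the late WT wing.

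Leaving out each library in turn gave 6 to 7 higher and 0 to 1 lower in the early WT gland, 1 to 3 higher and 1 lower in the late, 0 to 2 higher in the early WT wing, 4 to 6 lower in gland against wing at -30 h, 2 to 3 higher at -6 h, and 1 to 2 higher and 1 to 2 lower at +6 h. It gave 1 to 6 higher in EcRi against WT glands at -30 h, 0 to 1 higher and 3 to 4 lower at -6 h, and 0 to 1 lower in EcRi wings. For the interactions it gave 5 to 6 lower for gland time by genotype, 0 to 1 higher and 3 to 4 lower for the EcRi effect by tissue, 4 to 6 higher and 0 to 1 lower for the early and 0 to 1 higher and 1 to 2 lower for the late interval by tissue. With replicate 2 of the WT gland at -30 h left out of every fit, gland against wing at +6 h had 2 higher, EcRi wings 1 lower and the EcRi effect by tissue 1 higher.

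The labels do not say what a replicate number shares. The correlation of replicate differences was -0.0405 to 0.431 over 45 pairs of groups and above 0.1 in 29 of them, so the numbers were not taken to pair the libraries, although a shared source in some groups is not excluded. A fit with the replicate number as a replicate block gave 1 higher for the EcRi effect by tissue (from 0), and 6 higher and 1 lower for the early interval by tissue (from 5 and 0). The calls gained were Debcl (1.21) in the former and Drice (2.82) and Debcl (-1.04) in the latter, and no call was lost. Over single genes, leaving out a library gave 782 values on the same side of the threshold, 17 calls gained and 41 lost, and the other settings 1328, 36 and 60, with 14 signs turned among values called in either fit. Among values called in neither, signs also turned in 5 with median-of-ratios scaling, 2 in the compared libraries alone and 1 with voom weights. With 2 libraries a group the median standard error was 0.288, or 0.407 for an interaction, which limits what can be called near 2-fold.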
